A study of Rattus norvegicus with 12 samples.

Results

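Glycolysis, glucose and lactate transport and the control of pyruvate entry into mitochondria were followed through 35 named genes, taken by symbol from the raw count files of cultured fetal rat metatarsals. Of the 35 members, 31 reached 60 counts in at least 2 of the 12 libraries and were tested together with all 12602 genes above that minimum, out of 30045 symbols in the files. The 4 others, Eno2, Slc2a3, Pfkfb1 and Pfkfb4, were low. Nearest to the minimum among the members tested were Tpi1 and Slc2a4, each with 60 or more counts in 10 libraries, and Pfkfb4 was just outside, with 62 counts in its highest library and less than 60 in the others.

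Metatarsals of Sprague Dawley fetuses at embryonic day 19 were kept in DMEM/F12 medium with albumin, β-glycerolphosphate and ascorbic acid for 72 h, and about 20 bones were pooled for each RNA sample. The 4 conditions had 3 pools each: untreated control, dexamethasone (a synthetic glucocorticoid) at 1 µM, LiCl (an inhibitor of glycogen synthase kinase-3 and so an activator of β-catenin signalling) at 10 mM, and dexamethasone + LiCl at the same concentrations. Ethanol was added to the control and LiCl cultures. The pools came from 3 separate experiments per the study's methods, each pool mixes the bones of several fetuses, and the whole bone was crushed, so cartilage, perichondrium and any attached tissue were measured together.

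Glycolysis splits glucose into pyruvate in the cytosol, and lactate dehydrogenase turns pyruvate into lactate when it is not burnt in mitochondria. Its commonly controlled steps are glucose uptake, hexokinase, phosphofructokinase and pyruvate kinase, while pyruvate dehydrogenase kinases (PDK) switch off the complex that feeds pyruvate to the tricarboxylic acid cycle. Growth plate cartilage has few blood vessels and is known for a high glycolytic activity, in which the hypoxia-inducible factor HIF-1 induces many of these genes.

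The libraries held 9055581 to 21953446 counts. The chondrocyte marker list was high in every pool (12 of 14 markers in the files, summed level 84600 to 126000 CPM, none at 0), in keeping with the labelled tissue. Skeletal muscle markers summed to 47.3 to 48.4 CPM in control, 74.5 to 113 CPM in dexamethasone, 84.5 to 90.3 CPM in LiCl and 196 to 250 CPM in dexamethasone + LiCl pools, with the satellite cell marker Pax7 at 0 in all groups. Levels are CPM, the counts of a gene per 1000000 counts on library sizes scaled by TMM (a scaling by which the typical gene has equal levels in all libraries), pools are numbered as in the labels, changes are on the log2 scale, each beside its SE (standard error), from edgeR's quasi-likelihood test over all 12 libraries, and "called" means a Benjamini-Hochberg adjusted p under 0.05 over the 12602 genes. Because levels were not divided by transcript length, they were compared only within a gene. In pooled bulk RNA, fewer cells of a type and less RNA per cell cannot be told apart.

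The region before a gene's start is where many inducible factors bind, and 4 promoters of members with different behaviour are shown, each 250 bases before to 50 bases after the transcription start, 5′ to 3′, from the RefSeq annotation of the rat build GRCr8. Capitals mark the core letters of the hypoxia response element (ACGTG or GCGTG, either strand) and the letters CTTTGAA of the TCF/LEF site that β-catenin partners bind (either strand). Pfkp (platelet-type phosphofructokinase, chr17:68639563-68639862, plus strand) and Ldha (lactate dehydrogenase A, chr1:106507842-106508141, plus strand) were higher with LiCl in the presence of dexamethasone, as was Slc2a1 (the glucose transporter GLUT1, chr5:138002272-138002571, plus strand), whereas Eno3 (the muscle-type enolase, chr10:55868936-55869235, plus strand) was lower.
Pfkp: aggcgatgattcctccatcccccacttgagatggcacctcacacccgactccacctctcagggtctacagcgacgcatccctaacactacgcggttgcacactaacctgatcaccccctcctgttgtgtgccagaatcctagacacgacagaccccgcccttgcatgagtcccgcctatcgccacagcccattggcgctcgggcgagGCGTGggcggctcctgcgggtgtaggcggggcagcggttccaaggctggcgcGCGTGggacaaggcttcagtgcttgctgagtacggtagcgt
Ldha: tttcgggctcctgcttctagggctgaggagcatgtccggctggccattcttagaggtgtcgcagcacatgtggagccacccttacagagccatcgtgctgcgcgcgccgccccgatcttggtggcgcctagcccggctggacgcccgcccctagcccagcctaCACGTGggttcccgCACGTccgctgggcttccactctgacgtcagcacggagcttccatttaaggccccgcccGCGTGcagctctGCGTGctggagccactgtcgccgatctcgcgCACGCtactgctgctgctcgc
Slc2a1: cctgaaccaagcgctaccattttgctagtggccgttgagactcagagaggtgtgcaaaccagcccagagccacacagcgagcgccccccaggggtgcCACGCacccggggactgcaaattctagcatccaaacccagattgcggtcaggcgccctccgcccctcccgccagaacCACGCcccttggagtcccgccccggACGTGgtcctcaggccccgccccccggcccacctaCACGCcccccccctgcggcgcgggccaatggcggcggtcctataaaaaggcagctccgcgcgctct
Eno3: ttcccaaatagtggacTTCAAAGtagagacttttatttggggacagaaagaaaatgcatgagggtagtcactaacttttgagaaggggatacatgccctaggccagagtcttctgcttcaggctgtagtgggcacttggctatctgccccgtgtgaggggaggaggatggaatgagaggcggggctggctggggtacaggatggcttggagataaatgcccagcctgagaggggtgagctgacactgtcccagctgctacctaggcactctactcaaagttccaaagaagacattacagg

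The Ldha window held 6 matches to the hypoxia core letters, of which a pair overlaps in the palindrome CACGTG that is also an E-box. Slc2a1 held 4 matches, Pfkp held 2 and Eno3 held none. Not shown are the other members called higher in dexamethasone + LiCl against dexamethasone. Of these, Slc16a3, Hk2 and Pkm held none, Pfkl and Pgam1 held 2 each, and Aldoa held 1 in 1 of its windows. Pdk2 and Ldhb, called lower with LiCl against control, held 2 and 1. A RefSeq promoter was found for 32 of the 35 members, and the exceptions were Slc2a3, Slc2a4 and Pgk1. Among the 33 promoter windows of the members tested (29 genes), ACGTG or GCGTG was present in 23 (69.7%), against 60.8% of the 10002 windows of all genes tested and 41.6% of all 33469 windows of this length. The letters ACGTG alone were in 51.5% of the members' windows and in 24.8% of those of all genes tested, and GCGTG alone in 51.5% and 49.1%. The palindromic glucocorticoid response element, AGAACA and TGTTCT with any 3 bases between them on either strand, was in 0 of the 33 windows and in 0.0149% of all windows. It was also in 0 of the 10002 windows of all genes tested, so its absence cannot set the members apart. The half-site AGAACA was in 9.09% of the members' windows and in 12.5% of those of all genes tested. CTTTGAA was in 1 window of a member, that of Eno3 (3.03%), against 3.73% of the windows of all genes tested, and CTTTGAT was in 0 of the 33 windows, against 2.42%. A match is a description of the letters in this window, not a binding site.

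When LiCl was present with dexamethasone, 9 members from glucose uptake to lactate export stood higher than with dexamethasone alone. Of the 31 members, 9 were up-regulated and 1 was down-regulated in dexamethasone + LiCl against dexamethasone (edgeR, adjusted p under 0.05), where 3.82% and 4.78% of all genes tested were called higher and lower. The median log2 fold change was 0.45 over the members and 0.00 over all genes. Up-regulated were Hk2, Pfkl, Pfkp, Aldoa, Pgam1, Pkm, Ldha, Slc2a1 and Slc16a3, which together cover glucose uptake, 6 steps of the pathway and lactate export, and Eno3 was down-regulated. The pools of both groups did not overlap for 16 members (51.6%), against 27.7% of all genes.

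With the replicate number as a block, the same comparison called 17 members higher and 2 lower (edgeR), which added Hk1 (adjusted p = 0.0288), Gpi (0.024), Tpi1 (0.0377), Gapdh (0.00668), Pgk1 (0.00807), Eno1 (0.00811), Pdk1 (0.0228) and Pfkfb3 (0.0143) to the higher and Pdk4 (0.0286) to the lower members. The block also raised the calls over all 12602 genes, from 481 to 699 higher and from 603 to 882 lower. Without the block, the count of higher members changed when single pools were left out. It was 3 without dexamethasone pool 1, 3 without dexamethasone pool 3 and 3 without dexamethasone + LiCl pool 2, and it was 16 without dexamethasone pool 2. Over all genes tested, 481 were higher with all pools, and 315, 251, 302 and 455 in these fits. The count of lower members was 0 without dexamethasone pool 3, dexamethasone + LiCl pool 1 or dexamethasone + LiCl pool 2, and 2 without control pool 2. Over all genes tested, 603 were lower with all pools, and 336, 320, 363 and 829 in these fits. Pfkp, Pfkl and Pgam1 were called in all 12 fits that left out 1 library.

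**Figure D1:**
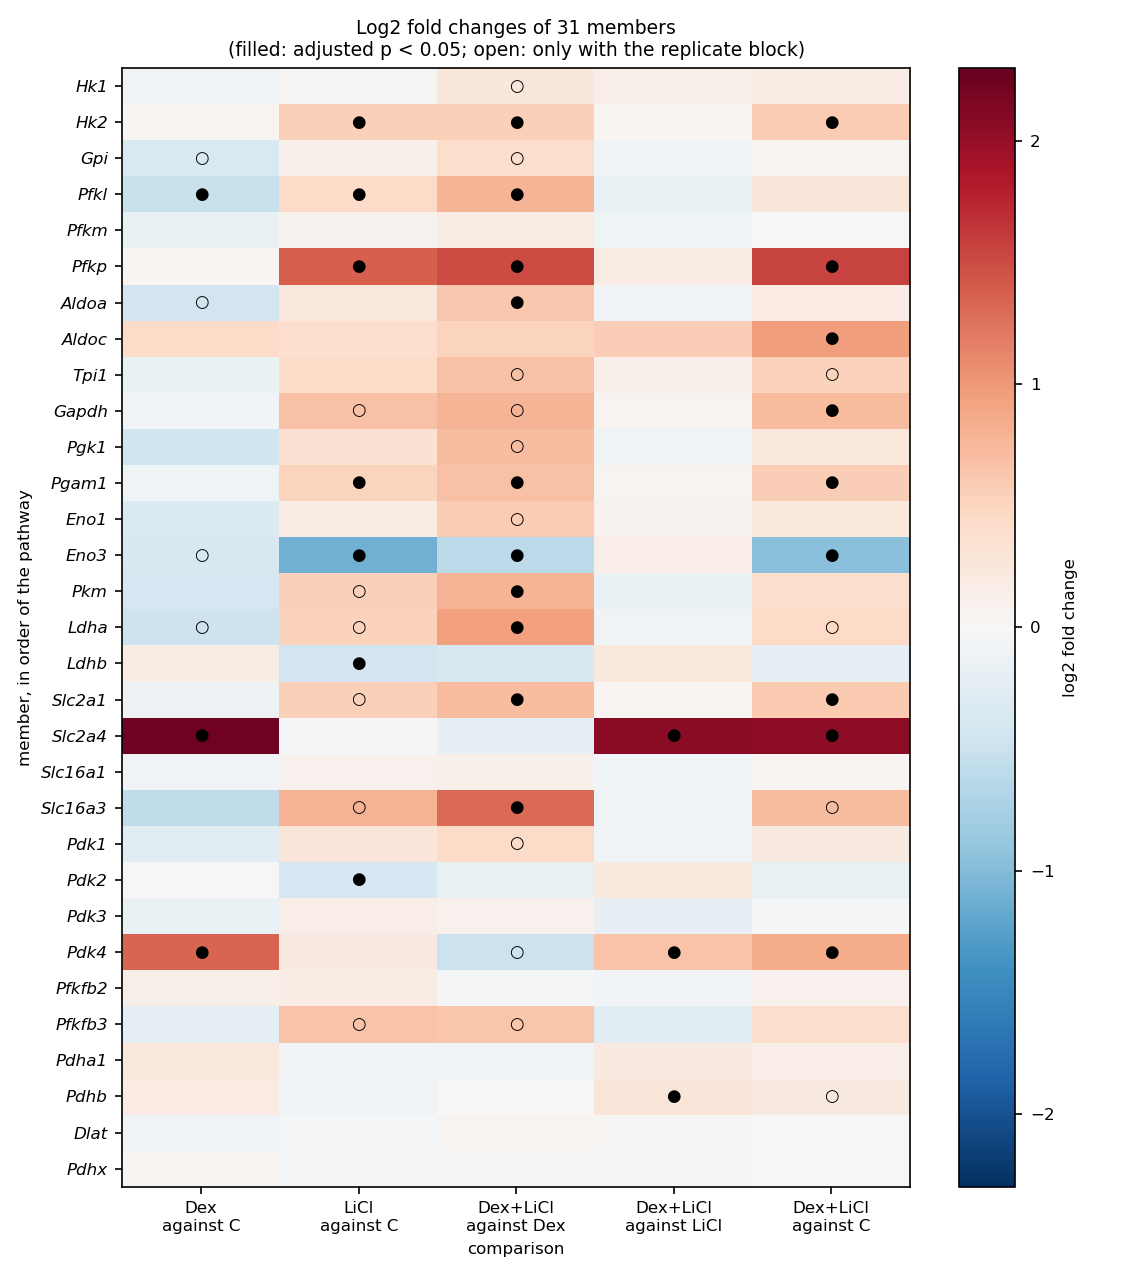
Log2 fold changes of the 31 members tested (rows, in the order of the pathway) in 5 comparisons (columns), coloured from blue (lower) to red (higher) on 1 scale. Filled circles mark an adjusted p under 0.05 in the edgeR fit and open circles mark members that passed only with the replicate block. Calls are densest in the column of dexamethasone + LiCl against dexamethasone, with 10 filled and 9 open circles.

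LiCl without dexamethasone up-regulated 4 members (Hk2, Pfkl, Pfkp and Pgam1) and down-regulated 3 (Eno3, Ldhb and Pdk2) against control, where 4.71% and 5.9% of all genes tested were called higher and lower by edgeR. The median log2 fold change was 0.20 over the members and 0.00 over all genes, and the pools did not overlap for 8 members (25.8%) against 31.8% of all genes. With the replicate block 10 members were higher and 3 lower, the added ones being Gapdh (edgeR adjusted p = 0.012), Pkm (0.0446), Ldha (0.0206), Slc2a1 (0.0343), Slc16a3 (0.0322) and Pfkfb3 (0.0101). That fit called 936 higher and 1038 lower of all 12602 genes. Without control pool 1, control pool 3 or LiCl pool 3 only Pfkp remained among the higher members, and 2 remained without LiCl pool 2. Over all genes tested, 594 were higher with all pools, and 486, 527, 305 and 358 in these fits. Without dexamethasone pool 2 or 3, which enter through the shared estimate of the spread, 8 and 7 members were called higher, beside 738 and 612 of all genes. Only Eno3 remained among the lower members without control pool 1, control pool 2 or LiCl pool 1. Over all genes tested, 744 were lower with all pools, and 519, 644 and 445 in these fits.

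The effect of LiCl was not shown to differ with and without dexamethasone for any member. In the interaction contrast 0 of 31 members were called by edgeR and 0 by DESeq2, 2 members had an unadjusted p under 0.05 (Pdk4 and Eno3), and 0.00794% of all genes tested were called. The lowest adjusted p of a member was that of Pdk4 (log2 difference -0.69, SE 0.22, edgeR adjusted p = 0.738).

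With dexamethasone alone, the share of members called was near that of all genes tested. Slc2a4 and Pdk4 were up-regulated and Pfkl was down-regulated against control (2 higher and 1 lower of 31, or 6.45% and 3.23%). Of all genes tested, 5.45% and 5.49% were called higher and lower by edgeR. Each of the 3 members was called in all 12 fits that left out 1 library. The median of the members was -0.10 against 0.00 over all genes, and the pools did not overlap for 5 members (16.1%) against 25.2% of all genes. With the replicate block 5 members were lower, the added ones being Gpi (edgeR adjusted p = 0.0485), Aldoa (0.0227), Eno3 (0.0245) and Ldha (0.03). That fit called 895 of all 12602 genes lower. Without dexamethasone pool 2, 6 members were lower. Over all genes tested, 692 were lower with all pools and 471 in that fit. By group means, the dexamethasone group was the lowest of the 4 for 19 of the 31 members, and dexamethasone + LiCl was the lowest for 0. The share of all genes with such an order was not computed, so these counts only describe the members.

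Dexamethasone added to LiCl, against LiCl alone, gave 3 higher members (Slc2a4, Pdk4 and Pdhb) and 0 lower, where 3.79% and 3.09% of all genes tested were called higher and lower by edgeR. No member was lower at an unadjusted p under 0.05 or by DESeq2, and only Slc2a4 remained called without LiCl pool 3 or without dexamethasone + LiCl pool 3. Over all genes tested, 477 were higher with all pools, and 357 and 376 in these fits. The pools of the 2 groups did not overlap for 7 members (22.6%) against 25.5% of all genes. Both drugs together, against control, gave 8 higher members (Hk2, Pfkp, Aldoc, Gapdh, Pgam1, Slc2a1, Slc2a4 and Pdk4) and 1 lower (Eno3), where 10.8% and 11.8% of all genes tested were called, and 14 members (45.2%) did not overlap against 37.3% of all genes. The count of higher members was 5 without control pool 1, 5 without control pool 3 and 4 without dexamethasone + LiCl pool 2. Over all genes tested, 1365 were higher with all pools, and 1189, 1141 and 967 in these fits. With the replicate block Tpi1 (edgeR adjusted p = 0.0486), Ldha (0.0299), Slc16a3 (0.0356) and Pdhb (0.0422) were also called higher. That fit called 1685 of all 12602 genes higher. A fold above 2 or below 0.5 was reached by few of the called members. In dexamethasone against control these were 2 higher (Slc2a4 and Pdk4) and 0 lower, beside 1.58% and 1.26% of all genes tested, and in LiCl against control 1 higher (Pfkp) and 1 lower (Eno3), beside 0.809% and 0.77%. In dexamethasone + LiCl they were 2 higher against dexamethasone (Pfkp and Slc16a3) and 0 lower, beside 0.77% and 0.595%, 1 higher against LiCl (Slc2a4) and 0 lower, beside 1.35% and 0.659%, and 2 higher against control (Pfkp and Slc2a4) and 0 lower, beside 2.27% and 2.1%. The comparisons share groups, so their calls are not independent of each other.

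Among the glucose transporters, Slc2a1 (GLUT1, the basal transporter of most cells) stood at 133, 177 and 136 CPM in control pools 1 to 3 and at 144, 167 and 98.2 CPM in dexamethasone pools. It was at 163, 215 and 269.7 CPM in LiCl and 184, 261 and 225 CPM in dexamethasone + LiCl pools. All dexamethasone + LiCl pools were above all dexamethasone pools and all control pools, while LiCl pool 1 lay within the control range. Slc2a1 was higher with dexamethasone + LiCl against dexamethasone (log2 fold change 0.71, SE 0.20, edgeR adjusted p = 0.0368) and against control (log2 fold change 0.59, SE 0.20, edgeR adjusted p = 0.0406). Both calls were lost without dexamethasone pool 1, LiCl pool 2 or dexamethasone + LiCl pool 2 or 3, the first also without dexamethasone pool 3 (adjusted p up to 0.143) and the second without control pool 1 or 3 (up to 0.162). DESeq2 gave an adjusted p of 0.074 for the second.

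Slc2a4 (GLUT4, the insulin-responsive transporter of muscle and fat) followed dexamethasone, with or without LiCl. Its level was 4.46, 4.64 and 3.93 CPM in control, 22.6, 22.3 and 16.5 CPM in dexamethasone, 4.0, 5.04 and 3.73 CPM in LiCl and 19.7, 16.6 and 17.8 CPM in dexamethasone + LiCl pools. No pool with dexamethasone overlapped any pool without it. Against control, Slc2a4 was 4.75-fold higher with dexamethasone (log2 fold change 2.25, SE 0.16, edgeR adjusted p = 1.42e-07), and dexamethasone + LiCl was 4.21-fold above LiCl (log2 fold change 2.07, SE 0.16, edgeR adjusted p = 4.79e-07). The difference between LiCl and control was -0.02 (SE 0.17, edgeR adjusted p = 0.963) and that between dexamethasone + LiCl and dexamethasone was -0.19 (SE 0.14, edgeR adjusted p = 0.48).

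Markers of muscle and fat, the cell types known for GLUT4, and of macrophages were read in the same pools. The muscle list was higher in dexamethasone than in control pools (74.5 to 113 against 47.3 to 48.4 CPM), as Slc2a4 was, with 4 of 8 muscle markers tested called higher by edgeR (median log2 fold change 0.79), and all 8 were called higher in dexamethasone + LiCl against LiCl (median 1.32). Of all genes tested, 5.45% and 3.79% were called higher in these comparisons. It was also higher in LiCl than in control pools (84.5 to 90.3 CPM), where Slc2a4 overlapped (3.73 to 5.04 against 3.93 to 4.64 CPM). The muscle list was higher again in dexamethasone + LiCl (196 to 250 CPM) than in dexamethasone pools. There 6 of the 8 were called higher by edgeR (median 1.77), beside 3.82% of all genes tested, whereas Slc2a4 changed by -0.19 and was not called. The summed level of 8 adipocyte markers was 47.1 to 66.1 CPM in control, 46.8 to 61 CPM in dexamethasone, 21.6 to 23 CPM in LiCl and 37.1 to 51.6 CPM in dexamethasone + LiCl pools, with Lep at 0 in the groups that received a drug. Of 4 adipocyte markers tested, edgeR called 2 lower and 0 higher in dexamethasone against control (median -0.55). In LiCl against control 4 were lower (median -1.74). Of all genes tested, 5.49% and 5.9% were called lower there. Dexamethasone + LiCl against LiCl had 1 of the 4 higher and 0 lower (median 0.30), beside 3.79% and 3.09% of all genes. The macrophage list was higher in the pools with dexamethasone, at 91.9 to 143 CPM in control against 232 to 262 CPM in dexamethasone, and was 82.3 to 86.7 CPM in LiCl and 175 to 214 CPM in dexamethasone + LiCl pools (9 of 10 markers in the files, none at 0). Of these 9, edgeR called 6 higher and 1 lower in dexamethasone against control, beside 5.45% and 5.49% of all genes tested. The part of these cells in the Slc2a4 values was not tested.

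Slc2a3 (GLUT3, best known from neurons) had 0 to 2 counts per library and 7 in all 12 together. The lactate exporter Slc16a3 (MCT4, typical of glycolytic cells) stood at 58.6, 82.3 and 67.3 CPM in control and 43.1, 72.9 and 20.6 CPM in dexamethasone pools. With LiCl it was at 79.7, 134 and 148 CPM, and with dexamethasone + LiCl at 91.1, 140.3 and 112 CPM. Dexamethasone pool 3 was the lowest of all 12 and dexamethasone pool 2 reached the control range, whereas every dexamethasone + LiCl pool was above every dexamethasone pool. Slc16a3 was 2.48-fold higher in dexamethasone + LiCl than in dexamethasone (log2 fold change 1.31, SE 0.32, edgeR adjusted p = 0.0189), and the call was lost without dexamethasone pool 1, dexamethasone pool 3 or dexamethasone + LiCl pool 2 (adjusted p up to 0.0747). Against control, the LiCl value (log2 fold change 0.81, SE 0.30, edgeR adjusted p = 0.108) was called with the block. Slc16a1 (MCT1, which carries lactate both ways) was at 68.6, 72.6 and 70.3 CPM in control, 62.1, 69.0 and 68.5 CPM in dexamethasone, 71.0, 80.9 and 74.1 CPM in LiCl and 62.2, 81.8 and 72.5 CPM in dexamethasone + LiCl pools, and it was called in no comparison.

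**Figure D2:**
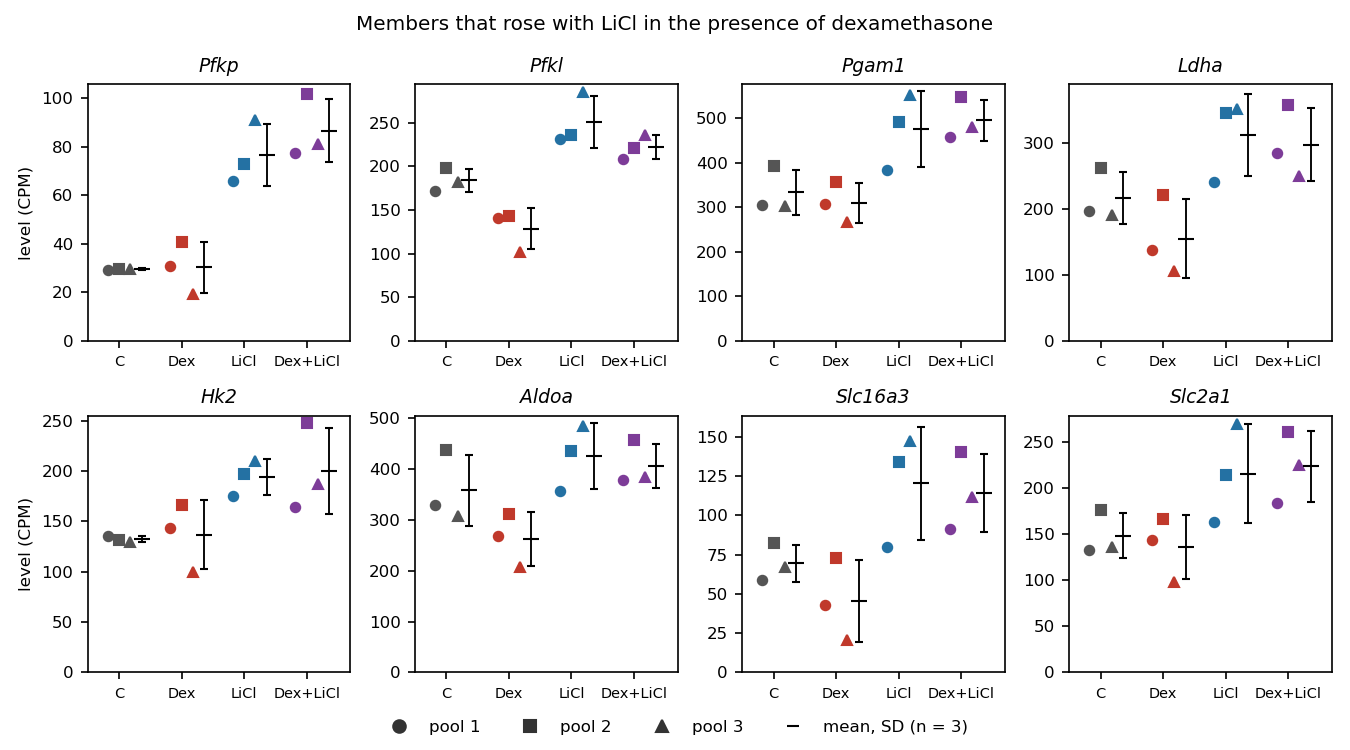
Level in CPM (y axis, from 0) of 8 members that were called higher in dexamethasone + LiCl than in dexamethasone, in each pool of the 4 conditions (x axis). Symbols mark pools 1 to 3, and the bar beside them is the mean with its SD (n = 3). All dexamethasone + LiCl pools of 7 of these members lie above all dexamethasone pools, and only Hk2 overlaps.

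Hexokinase traps glucose as glucose-6-phosphate. Hk2, the inducible form, was at 135, 132 and 129.7 CPM in control, 144, 166 and 99.5 CPM in dexamethasone, 175, 197 and 209.9 CPM in LiCl and 164, 247 and 187 CPM in dexamethasone + LiCl pools. All pools with LiCl alone were above all control pools, and dexamethasone pool 2 exceeded dexamethasone + LiCl pool 1. Hk2 was 1.47-fold higher with LiCl than in control (log2 fold change 0.55, SE 0.16, edgeR adjusted p = 0.0383), 1.46-fold higher with dexamethasone + LiCl than with dexamethasone (log2 fold change 0.54, SE 0.16, edgeR adjusted p = 0.0484) and 1.51-fold higher than in control with both drugs (log2 fold change 0.59, SE 0.16, edgeR adjusted p = 0.0147). The first call was lost without any 1 of the control or LiCl pools or dexamethasone pool 1 (adjusted p up to 0.138). The second was lost without control pool 1 or 3, dexamethasone pool 1 or 3, any LiCl pool, or dexamethasone + LiCl pool 2 or 3 (adjusted p up to 0.214), and the last without dexamethasone + LiCl pool 2 (0.0914).

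Hk1, the housekeeping form, varied little: 90.8, 85.9 and 91.0 CPM in control, 88.9, 75.8 and 88.9 CPM in dexamethasone, 90.8, 86.4 and 97.0 CPM in LiCl and 95.5, 96.2 and 109.6 CPM in dexamethasone + LiCl pools. Its largest change was 0.25 in dexamethasone + LiCl against dexamethasone (SE 0.09, edgeR adjusted p = 0.085). Gpi, which turns glucose-6-phosphate into fructose-6-phosphate, ranged from 181 to 263 CPM in dexamethasone and from 284 to 339 CPM in dexamethasone + LiCl pools (log2 fold change 0.41, SE 0.14, edgeR adjusted p = 0.0767).

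Phosphofructokinase commits fructose-6-phosphate to glycolysis and is encoded by Pfkp, Pfkl and Pfkm. Pfkp, the platelet type, was at 29.3, 29.7 and 29.8 CPM in control and 30.8, 40.6 and 19.5 CPM in dexamethasone pools. Its level was 65.9, 73.0 and 91.0 CPM in LiCl and 77.5, 102 and 81.1 CPM in dexamethasone + LiCl pools, so that the lowest pool with LiCl was above the highest pool without it. Pfkp was 2.59-fold higher with LiCl than in control (log2 fold change 1.38, SE 0.18, edgeR adjusted p = 2.31e-04) and 2.83-fold higher with dexamethasone + LiCl than with dexamethasone (log2 fold change 1.5, SE 0.19, edgeR adjusted p = 1.53e-04). It was called in all 12 fits that left out 1 library in both comparisons, with adjusted p up to 0.00208 and 0.00161.

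Pfkl, the liver type, stood at 172, 198 and 183 CPM in control, 141, 143 and 102 CPM in dexamethasone, 231, 236 and 285 CPM in LiCl and 209, 221 and 236 CPM in dexamethasone + LiCl pools. The dexamethasone pools were below every other pool, and the pools with LiCl were above the control pools. It was the only member of the 31 called in opposite directions by both drugs: lower with dexamethasone against control (log2 fold change -0.51, SE 0.12, edgeR adjusted p = 0.0107) and higher with LiCl against control (log2 fold change 0.45, SE 0.12, edgeR adjusted p = 0.026). In dexamethasone + LiCl against dexamethasone it was 1.73-fold higher (log2 fold change 0.79, SE 0.12, edgeR adjusted p = 8.85e-04), and against control the difference was 0.27 (SE 0.12, edgeR adjusted p = 0.117). The LiCl call was lost without control pool 1, control pool 3 or LiCl pool 3 (adjusted p up to 0.135).

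Pfkm, the muscle type, was at 99.5, 112 and 112 CPM in control, 102, 92.8 and 91.5 CPM in dexamethasone, 113, 118 and 113 CPM in LiCl and 106, 105 and 110.5 CPM in dexamethasone + LiCl pools and was called in no comparison. The log2 ratio of Pfkp to Pfkm counts, a ratio within each library, was -1.87 ± 0.09 in control (SD, n = 3), -1.72 ± 0.52 in dexamethasone, -0.60 ± 0.25 in LiCl and -0.32 ± 0.23 in dexamethasone + LiCl pools. Relative to Pfkm, Pfkp was higher in each pool with LiCl than in each pool without it.

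**Figure D3:**
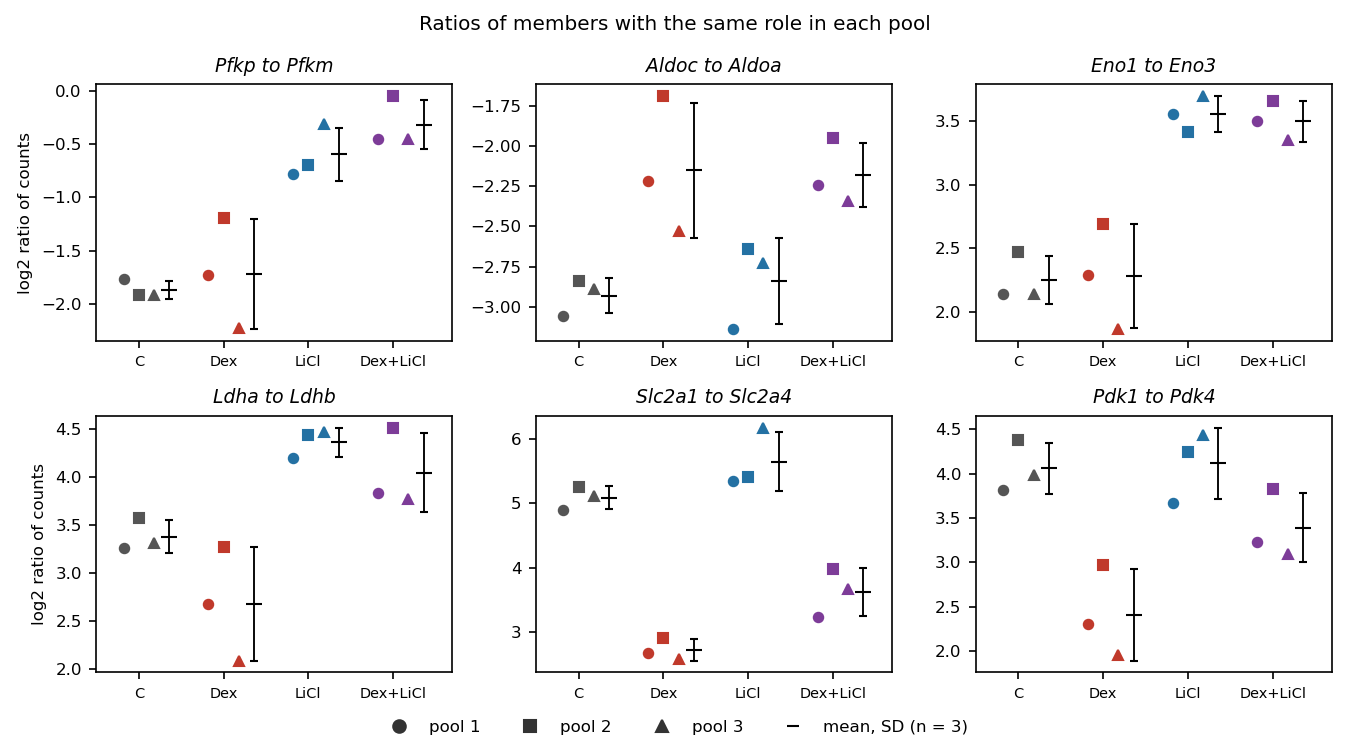
Log2 ratio of the counts of 6 pairs of members with the same role (y axis) in each pool of the 4 conditions (x axis). Symbols mark pools 1 to 3, and the bar beside them is the mean with its SD (n = 3). Pfkp to Pfkm and Eno1 to Eno3 are higher in the pools with LiCl (Eno1 to Eno3 from 2.25 in control to 3.56 in LiCl), and Slc2a1 to Slc2a4 is lower in the pools with dexamethasone (from 5.09 in control to 2.72 in dexamethasone).

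Aldolase splits fructose-1,6-bisphosphate. Aldoa, its muscle and general form, was at 329, 438 and 308 CPM in control, 268, 312 and 207 CPM in dexamethasone, 356, 435 and 484 CPM in LiCl and 377, 456 and 383 CPM in dexamethasone + LiCl pools. Aldoc, the brain form, was at 39.4, 61.0 and 41.5 CPM in control, 57.4, 96.3 and 36.0 CPM in dexamethasone, 40.3, 69.8 and 73.0 CPM in LiCl and 80.0, 118 and 75.5 CPM in dexamethasone + LiCl pools. Aldoa was higher in every dexamethasone + LiCl pool than in every dexamethasone pool (log2 fold change 0.63, SE 0.16, edgeR adjusted p = 0.0233), a call lost without dexamethasone pool 1 or 3 or dexamethasone + LiCl pool 2 (adjusted p up to 0.103). Aldoc was 1.94-fold higher with both drugs than in control (log2 fold change 0.96, SE 0.29, edgeR adjusted p = 0.0292). DESeq2 gave 0.0656 for that value, and the call was lost without control pool 1 or 3 or dexamethasone + LiCl pool 2 (adjusted p up to 0.138).

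The later part of the pathway from triose phosphates to pyruvate includes Tpi1, Gapdh, Pgk1, Pgam1, Eno1 and Pkm, genes with near-identical processed copies in mammalian genomes, so their counts may have lost shared reads and the values of these genes, with those of Ldha and Aldoa, are uncertain to that extent. Gapdh, the oxidising step, had 98 to 676 counts per library. It stood at 14.9, 22.1 and 16.8 CPM in control, 14.4, 24.9 and 11.0 CPM in dexamethasone, 21.0, 30.8 and 32.7 CPM in LiCl and 26.9, 35.1 and 26.4 CPM in dexamethasone + LiCl pools. All dexamethasone + LiCl pools exceeded all control pools. Gapdh was 1.66-fold higher with both drugs than in control (log2 fold change 0.73, SE 0.24, edgeR adjusted p = 0.0375), a call lost without control pool 1 or 3 or dexamethasone + LiCl pool 1 or 2 (adjusted p up to 0.151).

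Pgam1, the mutase that moves the phosphate of 3-phosphoglycerate, was the member after Pfkp and Pfkl with the lowest adjusted p in dexamethasone + LiCl against dexamethasone. It was at 305, 391 and 302 CPM in control, 306, 356 and 267 CPM in dexamethasone, 383, 491 and 551 CPM in LiCl and 458, 546 and 481 CPM in dexamethasone + LiCl pools. Every dexamethasone + LiCl pool was above every dexamethasone and control pool, and LiCl pool 1 was below control pool 2. The changes were 0.68 against dexamethasone (SE 0.14, edgeR adjusted p = 0.00799), 0.57 against control (SE 0.14, edgeR adjusted p = 0.00831) and 0.51 for LiCl against control (SE 0.14, edgeR adjusted p = 0.0297). The last was lost without control pool 1 or 3 or LiCl pool 2 or 3 (adjusted p up to 0.148).

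Tpi1, which interconverts the triose phosphates, ranged from 3.59 to 9.76 CPM over all pools, and Pgk1, the first step that yields ATP, from 132 to 412 CPM. Their changes in dexamethasone + LiCl against dexamethasone were 0.67 (SE 0.27, edgeR adjusted p = 0.14) and 0.70 (SE 0.24, edgeR adjusted p = 0.0799). In both genes dexamethasone pool 3 was the lowest of the 12 pools.

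The enolases make phosphoenolpyruvate, the substrate of pyruvate kinase. Eno3, the muscle form, was at 34.6, 45.7 and 37.8 CPM in control, 27.4, 30.3 and 33.7 CPM in dexamethasone, 14.2, 20.6 and 19.2 CPM in LiCl and 17.8, 19.7 and 22.2 CPM in dexamethasone + LiCl pools. Every pool with LiCl was below every pool without it. Eno3 was 0.463 of its control level with LiCl (log2 fold change -1.11, SE 0.14, edgeR adjusted p = 1.34e-04), 0.658 of its dexamethasone level with dexamethasone + LiCl (log2 fold change -0.60, SE 0.15, edgeR adjusted p = 0.0186) and 0.512 of its control level with both drugs (log2 fold change -0.97, SE 0.14, edgeR adjusted p = 1.48e-04). The first and the last were called in all 12 fits that left out 1 library, and the other was lost without dexamethasone pool 3 or dexamethasone + LiCl pool 1 or 2 (adjusted p up to 0.0812). In the same pools the summed skeletal muscle markers were higher with LiCl (84.5 to 90.3 against 47.3 to 48.4 CPM in control), the opposite direction to Eno3.

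Eno1, the general form, was at 153, 252 and 166 CPM in control, 134, 195 and 123 CPM in dexamethasone, 167, 220.4 and 250.3 CPM in LiCl and 201, 249.5 and 226 CPM in dexamethasone + LiCl pools. Its change was 0.17 with LiCl against control (SE 0.20, edgeR adjusted p = 0.631) and 0.58 with dexamethasone + LiCl against dexamethasone (SE 0.20, edgeR adjusted p = 0.085). The log2 ratio of Eno1 to Eno3 counts was 2.25 ± 0.19 in control (SD, n = 3), 2.28 ± 0.41 in dexamethasone, 3.56 ± 0.14 in LiCl and 3.50 ± 0.16 in dexamethasone + LiCl pools. Eno2, the neuronal form, had 9 to 41 counts per library and was not tested.

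Pkm, pyruvate kinase, was at 82.1, 90.6 and 109 CPM in control and 67.2, 98.1 and 50.2 CPM in dexamethasone pools. It was at 96.8, 166 and 149 CPM in LiCl and 101, 158 and 114 CPM in dexamethasone + LiCl pools. The dexamethasone pools spread widely, and pool 2 of that group was near the lowest dexamethasone + LiCl pool. Pkm was 1.73-fold higher in dexamethasone + LiCl than in dexamethasone (log2 fold change 0.79, SE 0.23, edgeR adjusted p = 0.0467), and DESeq2 gave an adjusted p of 0.0733. The call was lost without control pool 1 or 3, dexamethasone pool 1 or 3, LiCl pool 3 or any 1 of the dexamethasone + LiCl pools (edgeR adjusted p up to 0.191).

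Lactate dehydrogenase has a form that prevails in glycolytic tissue, Ldha, and a form that prevails in the heart, Ldhb. Ldha was at 197, 263 and 191 CPM in control, 138, 221 and 106 CPM in dexamethasone, 242, 346 and 352 CPM in LiCl and 284, 358 and 251 CPM in dexamethasone + LiCl pools. Ldhb was at 20.6, 22.1 and 19.2 CPM in control, 21.5, 23.0 and 24.9 CPM in dexamethasone, 13.2, 16.1 and 16.0 CPM in LiCl and 20.0, 15.7 and 18.4 CPM in dexamethasone + LiCl pools. The pools with LiCl alone overlapped the control pools for Ldha, where LiCl pool 1 lay below control pool 2, and were all below them for Ldhb. Ldha was 1.92-fold higher in dexamethasone + LiCl than in dexamethasone (log2 fold change 0.94, SE 0.23, edgeR adjusted p = 0.0176), a call lost without dexamethasone pool 1 or 3 or dexamethasone + LiCl pool 2 (adjusted p up to 0.0785). Ldhb was down-regulated by LiCl against control (log2 fold change -0.44, SE 0.11, edgeR adjusted p = 0.022), a call lost without control pool 1 or 2 or LiCl pool 1 (adjusted p up to 0.101). The log2 ratio of Ldha to Ldhb counts was 3.38 ± 0.17 in control (SD, n = 3), 2.68 ± 0.59 in dexamethasone, 4.36 ± 0.15 in LiCl and 4.04 ± 0.41 in dexamethasone + LiCl pools.

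Among the 4 pyruvate dehydrogenase kinases, which hold pyruvate back from mitochondria, Pdk4 and Pdk2 were called in at least 1 comparison. Pdk4, the kinase that glucocorticoids and fasting are known to induce, was at 6.57, 5.11 and 6.25 CPM in control, 15.5, 14.0 and 16.7 CPM in dexamethasone, 8.29, 6.56 and 6.15 CPM in LiCl and 10.9, 9.67 and 12.2 CPM in dexamethasone + LiCl pools. Every pool with dexamethasone was above every pool without it, and the dexamethasone + LiCl pools were all below the dexamethasone pools. Pdk4 was 2.54-fold higher with dexamethasone against control (log2 fold change 1.34, SE 0.16, edgeR adjusted p = 2.55e-05) and 1.58-fold higher with dexamethasone + LiCl against LiCl (log2 fold change 0.66, SE 0.15, edgeR adjusted p = 0.015). The second was lost without LiCl pool 2, LiCl pool 3 or dexamethasone + LiCl pool 3 (adjusted p up to 0.0941). Dexamethasone + LiCl against dexamethasone gave -0.49 (SE 0.15, edgeR adjusted p = 0.0602), 0.0286 with the replicate block and 0.0433 with DESeq2.

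**Figure D4:**
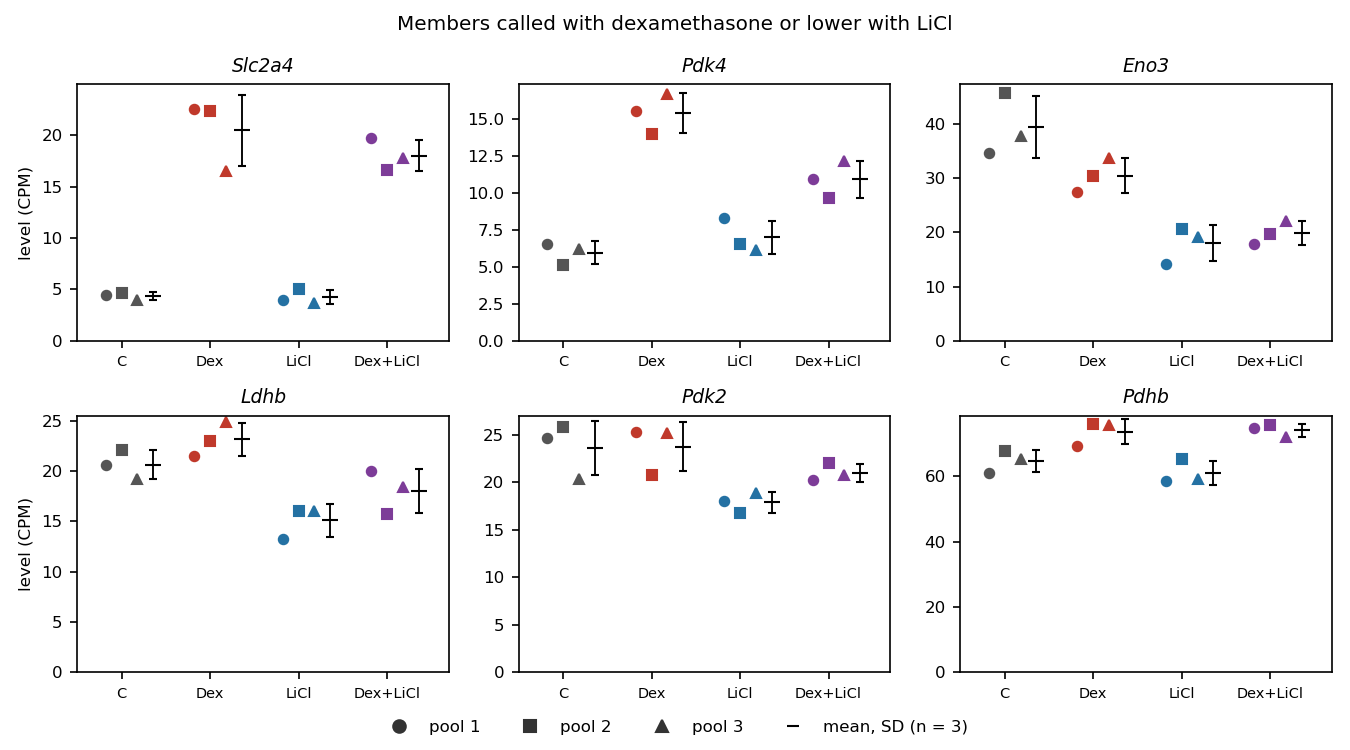
Level in CPM (y axis, from 0) of Slc2a4, Pdk4, Eno3, Ldhb, Pdk2 and Pdhb in each pool of the 4 conditions (x axis). Symbols mark pools 1 to 3, and the bar beside them is the mean with its SD (n = 3). Slc2a4 and Pdk4 separate the pools with dexamethasone from those without it, and Eno3 separates the pools with LiCl from those without it.

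Pdk2, the most widely expressed of these kinases, was at 24.7, 25.8 and 20.4 CPM in control, 25.2, 20.8 and 25.2 CPM in dexamethasone, 18.1, 16.7 and 18.8 CPM in LiCl and 20.2, 22.1 and 20.7 CPM in dexamethasone + LiCl pools. All LiCl pools were below all control pools (log2 fold change -0.40, SE 0.11, edgeR adjusted p = 0.033), a call lost without control pool 1 or 2 or any 1 of the LiCl pools (adjusted p up to 0.129). Pdk1, a target of HIF-1, was at 92.8, 106 and 99.0 CPM in control, 76.4, 110.2 and 65.0 CPM in dexamethasone, 105, 124 and 134 CPM in LiCl and 103, 138 and 104 CPM in dexamethasone + LiCl pools. Its change in dexamethasone + LiCl against dexamethasone was 0.45 (SE 0.16, edgeR adjusted p = 0.105). Pdk3, another kinase of this family, was at 48.9, 57.6 and 43.2 CPM in control, 51.7, 47.4 and 35.3 CPM in dexamethasone, 57.8, 57.3 and 50.1 CPM in LiCl and 51.7, 50.9 and 42.2 CPM in dexamethasone + LiCl pools, with no call.

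Of the pyruvate dehydrogenase complex, the E1 beta subunit Pdhb was at 61.1, 67.6 and 65.2 CPM in control, 69.2, 76.0 and 75.5 CPM in dexamethasone, 58.6, 65.2 and 59.0 CPM in LiCl and 74.7, 75.5 and 71.9 CPM in dexamethasone + LiCl pools. Every pool with dexamethasone was above every pool without it. It was 1.21-fold higher with dexamethasone + LiCl against LiCl (log2 fold change 0.28, SE 0.08, edgeR adjusted p = 0.0352), a call lost without LiCl pool 1 or 3 or any 1 of the dexamethasone + LiCl pools (adjusted p up to 0.154), and the value for dexamethasone against control was 0.19 (SE 0.08, edgeR adjusted p = 0.134). The E1 alpha subunit Pdha1 was at 33.2, 29.0 and 35 CPM in control, 39.3, 41.3 and 34.9 CPM in dexamethasone, 33.5, 33.6 and 27.1 CPM in LiCl and 35.2, 39.0 and 34.9 CPM in dexamethasone + LiCl pools. The E2 subunit Dlat ranged from 16.2 to 23.6 CPM and the binding protein Pdhx from 12.4 to 16.8 CPM over the 12 pools. These 3 subunits were called in no comparison.

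The bifunctional enzymes of the Pfkfb family set fructose-2,6-bisphosphate, the strongest activator of phosphofructokinase. Pfkfb3, the inducible form, ranged from 65.2 to 78.1 CPM in control, 39.0 to 80.2 CPM in dexamethasone, 80.0 to 129.8 CPM in LiCl and 79.8 to 113 CPM in dexamethasone + LiCl pools. LiCl against control gave 0.66 (SE 0.21, edgeR adjusted p = 0.0575), with pools that did not overlap, and the adjusted p was 0.0101 with the block. Pfkfb2, known from the heart, ranged from 42.1 to 59.2 CPM over all pools, with no call. Pfkfb1 had 18 to 56 counts per library and Pfkfb4 17 to 62, and neither was tested.

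Within each condition many members shared the order of the pools. Pool 2 was the highest of its group for 21 of the 31 members in control, 21 in dexamethasone and 21 in dexamethasone + LiCl, against 41.2%, 35.5% and 35.9% of all genes tested. In LiCl, pool 3 was the highest for 17 members and pool 1 the lowest for 23, against 31.4% and 35.8% of all genes. Dexamethasone pool 3 was the lowest for 21, against 32.8% of all genes. The summed level of the 17 glycolysis enzymes tested was 2226, 2838 and 2258 CPM in control pools 1 to 3, 1979, 2441 and 1576 CPM in dexamethasone, 2585, 3215 and 3493 CPM in LiCl, and 2822, 3482 and 2909 CPM in dexamethasone + LiCl pools. Their group means were 2441 ± 345, 1998 ± 433, 3098 ± 465 and 3071 ± 358 CPM (SD, n = 3). The dexamethasone pool 2 sum was thus above 2 of the control pools, and each dexamethasone + LiCl pool was above the dexamethasone pool of its number.

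Differences between pools of the same number had the same sign in all 3 numbers for many members. In dexamethasone + LiCl against dexamethasone, 20 members were higher and 3 (Eno3, Ldhb and Pdk4) lower in all 3 numbers, against 25.4% and 26.9% of all genes tested. Ldha differed by 1.05, 0.70 and 1.24 (log2) and Slc16a3 by 1.08, 0.94 and 2.44 in numbers 1 to 3. Eno3 differed by -0.62, -0.62 and -0.60, and all 3 differences were close to each other. In LiCl against control 17 members were higher and 4 lower in all 3 numbers (26.2% and 25.7% of all genes), and in dexamethasone against control 4 were higher and 10 lower (20.9% and 20.7%).

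**Figure D5:**
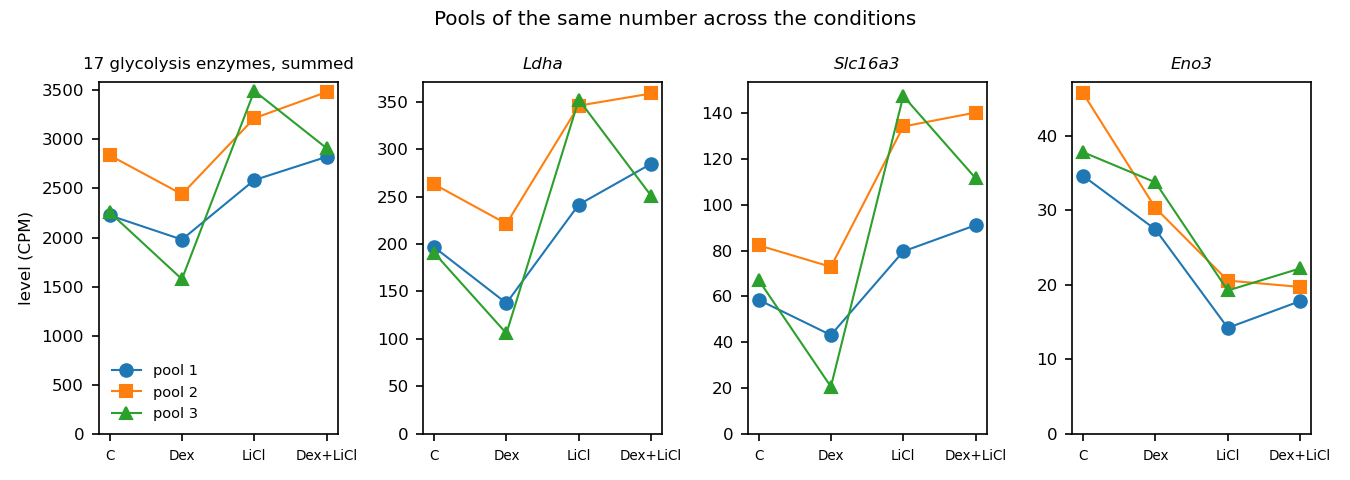
Level in CPM (y axis, from 0) of the 17 glycolysis enzymes summed and of Ldha, Slc16a3 and Eno3 in the 4 conditions (x axis). Each line joins the pools that carry the same replicate number. For the sum, the dexamethasone + LiCl pools (2822, 3482 and 2909 CPM) lie above the dexamethasone pools of their number (1979, 2441 and 1576 CPM).

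A list of 18 hypoxia-responsive genes outside glycolysis moved with these pools. Their summed level was 2155, 2750 and 2396 CPM in control pools 1 to 3, 2319, 3499 and 1822 CPM in dexamethasone, 2553, 3673 and 3798 CPM in LiCl and 3196, 4777 and 3429 CPM in dexamethasone + LiCl pools. Dexamethasone pool 2 was the highest of its group for 17 of the 18 and pool 3 the lowest for 17, dexamethasone + LiCl pool 2 was the highest for 18, and LiCl pool 1 was the lowest for 18. Of all genes tested, 35.5%, 32.8%, 35.9% and 35.8% held these places. By edgeR 4 of the 18 were called higher in LiCl against control (Car12, Egln3, Ero1l and Loxl2) and 3 in dexamethasone + LiCl against dexamethasone (Car12, P4ha2 and Loxl2), with 0 lower in either comparison, and the medians were 0.54 and 0.58 against 0.00 over all genes. Dexamethasone against control also had 4 called higher (Car12, Egln3, Ndrg1 and Ddit4), where the median was 0.05. Of all genes tested, 4.71%, 3.82% and 5.45% were called higher in these 3 comparisons. Dexamethasone + LiCl had 4 of the 18 higher against LiCl (median 0.17) and 7 against control (median 0.54). The shares of all genes called higher were 3.79% and 10.8% there. The part of oxygen supply in the members' values was not tested.

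Neighbouring pathways were read from lists of genes. Of 19 genes of the tricarboxylic acid cycle tested, 0 were called in any of the 5 comparisons by edgeR, with medians from -0.05 to 0.07. Of 8 tested genes for pyruvate entry and the pyruvate dehydrogenase phosphatases, Pdp1, the phosphatase that reactivates the complex, was lower with LiCl against control (log2 fold change -0.55, SE 0.10, edgeR adjusted p = 0.00191) and with dexamethasone + LiCl against dexamethasone (-0.66, SE 0.10, edgeR adjusted p = 8.85e-04). Pc, pyruvate carboxylase, was higher with dexamethasone against control (0.51, SE 0.10, edgeR adjusted p = 0.00256) and lower with LiCl (-0.48, SE 0.10, edgeR adjusted p = 0.00583). Pgam2, the muscle form of the mutase and 1 of 4 other glycolysis isoenzymes tested, was higher with LiCl against control (0.73, SE 0.13, edgeR adjusted p = 0.00202), in the opposite direction to the muscle enolase Eno3 and the same as the muscle markers. Of 6 other glucose transporters tested, 1 was called in LiCl against control (Slc2a10, lower) and 1 in dexamethasone + LiCl against dexamethasone (Slc2a13, lower). The pentose phosphate pathway (9 genes tested) had 1 gene higher (H6pd) and 1 lower (Rpia) with LiCl against control, and 0 in dexamethasone + LiCl against dexamethasone.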

How the data were processed

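RNA was sequenced from 12 pools of cultured metatarsals, 3 for each of 4 conditions, with groups and pool numbers taken from the sample labels. The authors deposited raw counts per gene and library. Per the study's methods, reads were aligned with Subread, duplicates were removed with Picard, genes were counted with HTSeq-count and technical replicates were merged. Removing duplicates can lower the counts of abundant genes. The submitters' processing notes list the human builds hg19 and GRCh37 for these rat libraries, which leaves the rat build of the count tables unsettled, and no coordinates were given to count values. Symbols of all 35 members were in the rat RefSeq gene table. The strand setting of the counting is not given in the sources used here. The table of the whole series held the same values as the sample files in 12 of 12 columns and was used only for that check, and 0 columns belonged to no mapped sample.

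Genes with 60 or more counts in at least 2 libraries were kept, libraries were scaled by TMM and all 12 were fitted by condition with edgeR 4.0.16 (quasi-likelihood test, R 4.3.3), with Benjamini-Hochberg adjustment over the 12602 genes. The scripts were tested on simulated data. CPM were computed on scaled library sizes. Totals of 9055581 to 21953446 counts set the counting precision. Alternatives were RLE scaling, DESeq2 1.42.0, edgeR's filterByExpr, no count filter, the replicate number as a block, a fit of only the 2 groups at hand, leaving out each library in turn, and a fold minimum of 2. Members with a call, and the forms that share the role of a called member, were given in every pool, and other members by range. Genes of the pathway lists were to be named where called with a fold above 2 or below 0.5, at most 3 per list and comparison, and those named under that fold were chosen after their values were seen. Of the glycogen list, 1 gene is not reported here. The members, lists and tests were chosen with earlier results of these data known.

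After removing condition means, same-numbered pools correlated across genes at 0.0273 to 0.5, in 16 of 18 pairs above 0.1, and each of 12 libraries correlated best with its own number, while pools of other numbers were at -0.464 to 0.0854. All comparisons except dexamethasone against control (0.0273 to 0.17) had every pair above 0.1, and the blocked value is given beside that comparison as well because each of its groups paired with the others. Per the study, the bones of each experiment were spread at random over the treatments, and each pool is described as coming from a single rat. Nothing in the labels ties a number to an experiment or a rat, so the pairing by number rests on these correlations. The fits that left out 1 library were run without the block. Where the pools of a condition share a source, p-values measure only the spread between these pools. Promoters were matched by symbol in a RefSeq table of build GRCr8.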

Additional observations from a re-analysis of the deposited data

How the results depend on the processing

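No call changed direction under any alternative run. RLE scaling and filterByExpr kept every count of members within 1.5 times that reported, although RLE ended the call of Hk2 in dexamethasone + LiCl against dexamethasone. A fit of only the 2 groups compared ended the calls of Pdk2 and Pgam1 in LiCl against control (edgeR adjusted p = 0.0622 and 0.0525) and of Hk2 and Pkm in dexamethasone + LiCl against dexamethasone (0.106 and 0.058). The same fit added calls of Gapdh, Pfkfb3 and Slc16a3 in LiCl against control. It also added Eno1 in dexamethasone + LiCl against dexamethasone and Slc16a3 in dexamethasone + LiCl against control. The replicate block raised the lower members in dexamethasone against control from 1 to 5, the higher members in LiCl against control from 4 to 10 and those in dexamethasone + LiCl against dexamethasone from 9 to 17, with 2 instead of 1 lower. It ended no call and moved no other count of members by over 1.5 times. Over all 12602 genes the block raised the same calls from 692 to 895, from 594 to 936 and from 481 to 699, with 882 instead of 603 lower. Without a count filter the counts of members were 7 lower, 10 higher and 17 higher in these comparisons, and dexamethasone + LiCl against control had 13 instead of 8 higher, while Pdhb lost its call in dexamethasone + LiCl against LiCl. DESeq2 called 2 lower members in dexamethasone against control and 2 in dexamethasone + LiCl against dexamethasone. The cause of these shifts was not tested.

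A fold above 2 or below 0.5 left 2 higher and 0 lower in dexamethasone against control, 1 and 1 in LiCl against control, 2 and 0 in dexamethasone + LiCl against dexamethasone, 1 and 0 against LiCl, and 2 and 0 against control, since most called changes were smaller than that.

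Leaving out 1 library at a time gave 2 to 2 higher and 1 to 6 lower members in dexamethasone against control, 1 to 8 and 1 to 3 in LiCl against control, 3 to 16 and 0 to 2 in dexamethasone + LiCl against dexamethasone, 1 to 3 and 0 to 0 against LiCl, and 4 to 10 and 1 to 1 against control. The interaction stayed at 0 members throughout.

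With 3 pools a condition, 2 left in some of these fits, a call near the threshold is not stable. Dexamethasone and dexamethasone + LiCl libraries were shallower (medians 10057103 and 10941818 counts) than control and LiCl libraries (20069564 and 18651019), and Tpi1, Slc2a4 and Pdk4, with 32 to 304 counts per library, are limited by depth.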

Other observations

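Glycogen is a store of glucose in cartilage cells, and glycogen synthase is the enzyme after which the kinase inhibited by lithium is named. Of 15 genes of a glycogen list tested, edgeR called 2 higher and 1 lower in LiCl against control, and 3 and 1 in dexamethasone + LiCl against dexamethasone, beside 4.71% and 5.9%, and 3.82% and 4.78% of all genes tested. In dexamethasone + LiCl against control 4 were higher and 3 lower, beside 10.8% and 11.8% of all genes. Dexamethasone against control had 2 higher and 0 lower, beside 5.45% and 5.49%. Pygl, the liver-type phosphorylase that breaks glycogen down, was higher with both drugs than in control (log2 fold change 1.17, SE 0.15, edgeR adjusted p = 3.87e-05), and was called higher with each drug alone (0.58 with dexamethasone, 0.57 with LiCl). Pygm, the muscle-type phosphorylase, was lower with both drugs (-1.05, SE 0.16, edgeR adjusted p = 1.61e-04), the direction of the muscle enolase Eno3 and opposite to the skeletal muscle markers (196 to 250 CPM against 47.3 to 48.4 CPM in control). Gys1, the synthase itself, was higher with both drugs than in control (0.90, SE 0.14, edgeR adjusted p = 2.76e-04). The part of muscle tissue in these values was not tested.

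Among 3 gluconeogenesis genes tested, Pck2, the mitochondrial form of phosphoenolpyruvate carboxykinase, was lower with LiCl against control (-0.45, SE 0.11, edgeR adjusted p = 0.0195). In the hypoxia-responsive list, Egln3, an oxygen-sensing hydroxylase, was higher with dexamethasone (2.26, SE 0.28, edgeR adjusted p = 5.43e-05), with LiCl (1.45, SE 0.28, edgeR adjusted p = 0.00397) and with both drugs (2.96, SE 0.28, edgeR adjusted p = 1.78e-06) than in control. Car12, a carbonic anhydrase, was higher with both drugs (2.42, SE 0.18, edgeR adjusted p = 1.16e-07). Egln3 and Car12 were 2 of the 4 genes of this list of 18 called higher with dexamethasone alone, where the median of the list was 0.05.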
